A study of Rattus norvegicus with 12 samples.

Results

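The 35 genes described here encode subunits of the brain's receptors for glutamate and for GABA. They are the 35 of 37209 gene symbols in the count table whose symbol is one of 4 AMPA, 7 NMDA, 5 kainate, 1 delta, 6 metabotropic glutamate, 10 GABA-A or 2 GABA-B receptor genes. RNA came from the brains of Sprague Dawley rats aged 21 postnatal days, in 4 groups of 3 libraries, 12 in all. Rats had a stroke after occlusion of the middle cerebral artery (MCAO), which feeds much of a cerebral hemisphere, and were matched to sham group LN, or had a pontine infarction, a stroke of the pons in the brainstem, and were matched to sham group PN. The match of shams to strokes rests on the first letter of the library codes. The labels give brain as the tissue and describe no region, no time since the stroke and no sham operation. Per the labels 3 rats had each stroke, and it is not said whether the sham libraries came from separate rats, so p-values measure the spread between libraries. The code of 1 MCAO column matches none of the sample titles, and that library is called unnumbered.

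Glutamate is the main excitatory and GABA the main inhibitory transmitter of the mature brain. AMPA, NMDA, kainate and GABA-A receptors are ion channels built of several subunits, and the choice of subunits sets their kinetics, their calcium entry and where in the cell they sit. Metabotropic glutamate receptors and the GABA-B receptor act through G proteins, and many of them sit on nerve endings, where they limit transmitter release. Excess glutamate acting on NMDA and AMPA receptors is a known route of neuronal death in stroke, and which subunits are made differs between brain regions and between neurons and astrocytes.

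The starts of 5 of these genes are shown, because they are the genes on which the results below turn most. RefSeq's table for the assembly GRCr8 held the promoter of 24 of the 35 genes, from 250 bases before to 50 bases after the start of the gene, and Grm3, Grm4 and Grm8 were not among them. Grin2c, Grik2 and Grik3 were lower after MCAO, and Gabra6 and Gabrd were high in a single library of pontine infarction. Capitals mark 3 motifs searched on both strands, which are GGGCGG (the GC box), TGACGTCA (the cAMP response element) and TTGGCA (the core of a nuclear factor I site), and matches may overlap each other, as the GC boxes of Gabrd do.
Grin2c, chr10:101005089-101005388 (minus strand): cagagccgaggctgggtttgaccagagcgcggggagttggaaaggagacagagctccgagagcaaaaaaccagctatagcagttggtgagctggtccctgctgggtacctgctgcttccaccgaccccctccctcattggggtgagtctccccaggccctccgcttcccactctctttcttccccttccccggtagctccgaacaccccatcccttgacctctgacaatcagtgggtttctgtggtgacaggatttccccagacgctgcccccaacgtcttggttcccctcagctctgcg
Grik2, chr20:54415234-54415533 (minus strand): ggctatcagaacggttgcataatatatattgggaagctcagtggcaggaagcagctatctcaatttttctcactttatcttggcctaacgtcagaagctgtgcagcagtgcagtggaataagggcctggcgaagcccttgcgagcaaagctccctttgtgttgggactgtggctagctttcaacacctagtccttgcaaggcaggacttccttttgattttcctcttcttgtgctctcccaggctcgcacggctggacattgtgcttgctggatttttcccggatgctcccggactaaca
Grik3, chr5:143052192-143052491 (plus strand): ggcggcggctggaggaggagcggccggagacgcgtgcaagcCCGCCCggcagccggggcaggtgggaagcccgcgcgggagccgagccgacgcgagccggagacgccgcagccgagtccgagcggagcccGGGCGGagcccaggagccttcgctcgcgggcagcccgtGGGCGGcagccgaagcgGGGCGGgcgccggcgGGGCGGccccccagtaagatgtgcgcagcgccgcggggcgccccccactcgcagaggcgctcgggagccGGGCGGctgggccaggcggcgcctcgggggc
Gabra6, chr10:27327185-27327484 (minus strand): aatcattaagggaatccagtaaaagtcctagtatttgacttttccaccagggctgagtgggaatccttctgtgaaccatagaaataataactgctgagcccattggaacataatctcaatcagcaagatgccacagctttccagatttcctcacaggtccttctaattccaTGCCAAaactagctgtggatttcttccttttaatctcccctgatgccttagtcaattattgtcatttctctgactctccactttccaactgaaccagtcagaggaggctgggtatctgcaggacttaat
Gabrd, chr5:171252660-171252959 (minus strand): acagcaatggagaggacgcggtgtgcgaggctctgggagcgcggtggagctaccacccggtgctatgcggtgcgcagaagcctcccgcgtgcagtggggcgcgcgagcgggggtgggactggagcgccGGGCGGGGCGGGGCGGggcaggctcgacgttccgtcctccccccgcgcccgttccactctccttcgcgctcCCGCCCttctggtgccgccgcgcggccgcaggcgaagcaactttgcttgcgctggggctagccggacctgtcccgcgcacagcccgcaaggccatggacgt
The Grik3 promoter held 6 GC boxes and that of Gabrd 4, and G and C made up 82.3% and 73.7% of their bases. The Grin2c and Grik2 promoters held none of the 3 motifs, and that of Gabra6 held 1 nuclear factor I core. Among the 24 promoters, 10 held a GC box, against 33.1% of the 33469 promoters of this length in the table. None of the 24 held a cAMP response element, against 1.83% of all promoters, and 1 held the nuclear factor I core, against 14% of all. The matches describe letters in this window only.

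Libraries held 19805815 to 40400676 counts, and levels are given as CPM, the counts scaled to a common library size. Of the 35 receptor genes, 32 had enough counts to be tested. Gria3 and Gabra3 were listed at 0 in all 12 libraries, as were 590 of the 605 symbols placed on the X chromosome (97.5%), against 1.82% to 13.04% of the symbols on the other chromosomes, so no statement on these 2 genes is made. Gabra6 had too few counts outside a single library.

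Regional markers separated the groups. The 8 telencephalic markers summed to 608, 1768 and 1300.05 CPM in MCAO libraries 1, 2 and unnumbered and 1129, 2086 and 1318 CPM in sham LN, but to 25.8, 58.5 and 329.9 CPM after pontine infarction and 243, 328 and 452 CPM in sham PN. Hoxb3, a gene of the hindbrain, was at 0 in all MCAO and sham LN libraries, at 0.930, 1.47 and 2.06 CPM after pontine infarction and at 6.66, 6.80 and 7.94 CPM in sham PN. Neuron markers were present in all libraries: 9 of the 10 on the list had enough counts, and Syp was listed at 0.

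Some libraries stood apart from their group. Pontine infarction replicate 3 had 1049 CPM in 11 cerebellar markers summed, against 70.2 and 124 CPM in replicates 1 and 2 and 189.7, 193 and 217 CPM in sham PN. Sham LN replicate 2 had 3712 CPM in 9 markers of striatal projection neurons, against 7789.99 and 6809 CPM in the other sham LN libraries, and the highest sum of 8 telencephalic markers in its group (2086 against 1129 and 1318 CPM). MCAO replicate 2 was the closest of the MCAO libraries to its shams, with 395 CPM in 7 markers of microglia and leukocytes, against 2302 and 1047 CPM in replicate 1 and the unnumbered library and 185, 199.9 and 159 CPM in sham LN. Counts of receptor genes past the threshold, and directions that turned, are given with and without these libraries. Marker calls, class medians and counts of groups without overlap rest on all libraries.

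The MCAO libraries were set against sham LN for the receptor genes that differed after a stroke of the hemisphere. Of 32 receptor genes tested, 5 fell and 0 rose, at a Benjamini-Hochberg adjusted p under 0.05 in edgeR's quasi-likelihood test, and among all 17008 genes 6.07% fell and 12.5% rose. Those that fell were the NMDA subunit Grin2c, the kainate subunits Grik2 and Grik3 and the metabotropic receptors Grm3 and Grm4. Their fitted levels were 1.65-fold to 2.75-fold lower after MCAO. In bulk RNA, fewer cells of a type and less RNA per cell cannot be told apart.

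Grin2c encodes an NMDA receptor subunit known from cerebellar granule cells and from astrocytes. It stood at 29.9, 101 and 41.4 CPM in MCAO libraries 1, 2 and unnumbered, against 172, 148 and 149 CPM in sham LN replicates 1 to 3. The groups did not overlap, and MCAO replicate 2 was the nearest to the shams (log2 change -1.45 ± 0.40 SE, edgeR adjusted p = 0.0288). Grm3, a metabotropic receptor that lowers cAMP and is carried by astrocytes as well as neurons, had 21.2, 83.8 and 25.3 CPM after MCAO, against 116, 131 and 111 CPM in sham LN. Again replicate 2 lay closest to the shams, without reaching them (log2 change -1.46 ± 0.46, edgeR adjusted p = 0.0467). Grm4, a metabotropic receptor of nerve endings, had 18.4, 34.8 and 28.2 CPM after MCAO, against 66.1, 56.8 and 52.9 CPM in sham LN. All MCAO libraries were below all sham libraries (log2 change -1.11 ± 0.35, edgeR adjusted p = 0.0469).

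Grik2 encodes a kainate receptor subunit that can form a channel by itself. Its level was 10.3, 27.3 and 10.01 CPM after MCAO, against 32.2, 29.6 and 37.3 CPM in sham LN. Replicate 2 was again just under the lowest sham, while the other MCAO libraries were far below (log2 change -1.06 ± 0.33, edgeR adjusted p = 0.0461). Grik3, a kainate subunit of low glutamate affinity, had 60.2, 131 and 106 CPM after MCAO, against 163, 169.8 and 158 CPM in sham LN. The groups did not overlap, and the call was the closest of the 5 to the threshold (log2 change -0.72 ± 0.23, edgeR adjusted p = 0.0499).

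**Figure D1:**
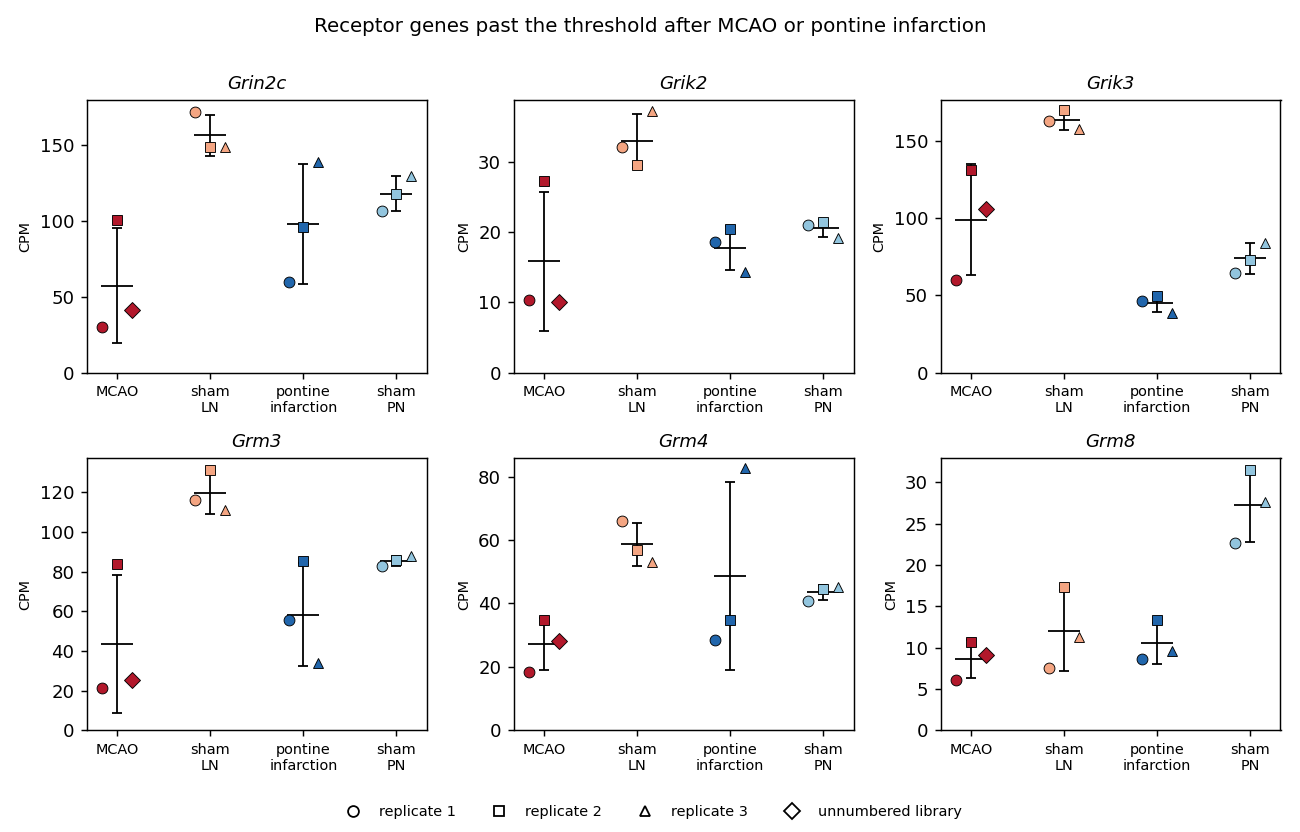
Scaled counts (CPM) of the 5 receptor genes that fell after MCAO and of Grm8, which fell after pontine infarction, in each of the 12 libraries; horizontal bars and error bars are the group mean and SD of 3 libraries. In Grin2c, Grik2, Grik3, Grm3 and Grm4 all MCAO libraries lie below all sham LN libraries, with MCAO replicate 2 (square) the closest to the shams, and Grm8 is lower in all pontine infarction libraries than in all sham PN libraries.

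The other 27 receptor genes tested did not pass. The fitted log2 change was below 0 in 30 of the 32, against 50.2% of all genes. The median was -0.69, against -0.00176 over all genes tested. Among the 30, Grin3b, Grik1 and Gabbr2 were above 0 with 1 or another library left out. In 15 of the 32 all MCAO libraries were below all sham LN libraries, against 18.7% of all genes, and in 0 were they all above, against 20.4% of all genes. At an unadjusted p under 0.05, 12 receptor genes (37.5%) were counted, against 35.6% of all genes in either direction.

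Among the AMPA subunits, which carry fast excitation, 0 of 3 tested passed. Gria1, a subunit of calcium-permeable and plastic AMPA receptors, had 76.5, 170.02 and 92.3 CPM after MCAO, against 159.8, 178 and 198 CPM in sham LN (log2 change -0.66 ± 0.26, edgeR adjusted p = 0.0897). Gria2, whose edited form blocks calcium entry, had 123, 389 and 159 CPM after MCAO, against 328, 376 and 393 CPM in sham LN (log2 change -0.71 ± 0.44, edgeR adjusted p = 0.264). In both genes MCAO replicate 2 lay within the range of the shams and the other MCAO libraries lay below it. Gria4 averaged 55.1 ± 23.3 CPM after MCAO, against 78.8 ± 5.80 CPM in sham LN (SD, n = 3 each).

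Among the 7 NMDA subunits Grin2c alone passed, and all 7 had a log2 change below 0 (median -0.74). Grin1, the subunit that every NMDA receptor needs, had 399.6, 698 and 530.3 CPM after MCAO, against 811, 912 and 733 CPM in sham LN. The groups did not overlap, but the test was not passed (log2 change -0.59 ± 0.20, edgeR adjusted p = 0.0588). Grin2a, the subunit that becomes more abundant as synapses mature, had 24.1, 63.1 and 52.4 CPM after MCAO, against 64.1, 108 and 60.7 CPM in sham LN, and the groups overlapped (log2 change -0.74 ± 0.41, edgeR adjusted p = 0.215). Grin2b, the subunit that prevails early in life, had 63.2, 156 and 97.6 CPM after MCAO, against 170.4, 193 and 181 CPM in sham LN (log2 change -0.78 ± 0.37, edgeR adjusted p = 0.153). All MCAO libraries were below all shams in Grin2b. Grin2d, an NMDA subunit of slow channels, averaged 9.34 ± 2.92 CPM after MCAO, against 16.7 ± 1.98 CPM in sham LN, and the groups did not overlap. Grin3a averaged 11.97 ± 8.46 CPM after MCAO, against 16.1 ± 4.28 CPM in sham LN, and Grin3b, which stood near the lower limit of detection, 0.677 ± 0.582 CPM after MCAO, against 0.786 ± 0.280 CPM in sham LN (SD, n = 3 each). Both of these NMDA subunits overlapped between the groups.

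Of the 5 kainate subunits, Grik2 and Grik3 fell and the others did not pass. Grik4 and Grik5 encode the high-affinity subunits, which need another kainate subunit to form a channel. Grik5 averaged 226 ± 69.6 CPM after MCAO, against 335 ± 13.9 CPM in sham LN (log2 change -0.57 ± 0.20, edgeR adjusted p = 0.0695), without overlap. Grik4 averaged 42.4 ± 8.49 CPM after MCAO, against 40.96 ± 3.87 CPM in sham LN, a log2 change of 0.05 ± 0.17 whose sign differed between settings. Grik1 averaged 6.84 ± 4.62 CPM after MCAO, against 8.22 ± 1.52 CPM in sham LN, with overlap. The delta receptor gene Grid1, which organises synapses, averaged 31.8 ± 11.1 CPM after MCAO, against 54.8 ± 6.03 CPM in sham LN, without overlap (log2 change -0.79 ± 0.27, edgeR adjusted p = 0.0637).

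Of the 6 metabotropic receptors Grm3 and Grm4 fell. Grm5, the receptor that releases calcium through Gq, had 43.7, 144 and 44.4 CPM after MCAO, against 150.3, 137 and 191 CPM in sham LN. MCAO replicate 2 lay within the range of the shams and the other MCAO libraries were far below it (log2 change -1.04 ± 0.51, edgeR adjusted p = 0.165). Grm2 averaged 48.4 ± 20.3 CPM after MCAO, against 79.5 ± 26.7 CPM in sham LN, and Grm8 8.59 ± 2.33 CPM after MCAO, against 12.1 ± 4.94 CPM in sham LN (SD, n = 3 each). Grm7, a receptor of the active zone of nerve endings, averaged 52.1 ± 15.4 CPM after MCAO, against 49.5 ± 1.19 CPM in sham LN. Its log2 change of 0.07 ± 0.30 and that of Grik4 were the only ones not below 0, and both turned below 0 in at least 1 other setting.

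None of the 8 GABA-A subunits tested passed, and all 8 had a log2 change below 0 (median -0.67). Gabra2, an alpha subunit, had 29.01, 89.1 and 51.4 CPM after MCAO, against 68.97, 74.8 and 88.6 CPM in sham LN (log2 change -0.46 ± 0.43, edgeR adjusted p = 0.469). Gabrb2, a beta subunit of many synaptic receptors, had 73.3, 172 and 71.98 CPM after MCAO, against 145, 192 and 157 CPM in sham LN (log2 change -0.64 ± 0.47, edgeR adjusted p = 0.354). In both genes the groups overlapped through MCAO replicate 2. Gabrg1, a gamma subunit, had 10.01, 22.6 and 19.3 CPM after MCAO, against 25.4, 27.5 and 31.1 CPM in sham LN, without overlap (log2 change -0.69 ± 0.32, edgeR adjusted p = 0.142). Gabrd, the delta subunit of receptors outside synapses, had 28.2, 80.7 and 45.5 CPM after MCAO, against 124, 105 and 101 CPM in sham LN (log2 change -1.09 ± 0.97, edgeR adjusted p = 0.443). All MCAO libraries were below all shams in Gabrd, whose SE in the fit over all 12 libraries was the widest of the 32. That fit shares its estimate of the spread with the pontine infarction libraries, where Gabrd stood at 3.40, 2.85 and 87.7 CPM.

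The remaining GABA-A subunits also had lower means after MCAO, and none passed. Gabra4, an alpha subunit that often pairs with delta, averaged 108 ± 36.9 CPM after MCAO, against 165 ± 17.3 CPM in sham LN, without overlap. Gabra5, known from hippocampal receptors outside synapses, averaged 19.3 ± 14.9 CPM after MCAO, against 49.1 ± 16.6 CPM in sham LN, with overlap (log2 change -1.35 ± 0.52, edgeR adjusted p = 0.0863). Gabrb1 averaged 22.8 ± 6.46 CPM after MCAO, against 34.6 ± 5.02 CPM in sham LN, and Gabrg3 4.02 ± 2.35 CPM after MCAO, against 8.04 ± 0.715 CPM in sham LN (SD, n = 3 each). Gabra6 had 0, 3 and 2 counts in the MCAO libraries, against 5, 7 and 10 counts in sham LN.

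The GABA-B receptor is a pair of its 2 subunits, Gabbr1, which binds GABA, and Gabbr2, which couples to the G protein. Gabbr1 had 629, 1280.2 and 935 CPM after MCAO, against 1542, 1516 and 1511 CPM in sham LN. The groups did not overlap, and the adjusted p lay just above the threshold (log2 change -0.68 ± 0.22, edgeR adjusted p = 0.0518). Gabbr2 had 181, 372 and 429.6 CPM after MCAO, against 303, 532 and 315 CPM in sham LN, and overlapped (log2 change -0.23 ± 0.31, edgeR adjusted p = 0.635). Sham LN replicate 2, the library with the fewest striatal markers of its group, set the upper end of Gabbr2, of Grin2a (108 CPM) and of Grm2 (109.6 CPM) in the shams. It was also the highest sham LN library in other receptor genes, Grin1, Grin2b and Gabra5 among them, and the lowest in some, such as Gabra4 and Grm5.

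**Figure D2:**
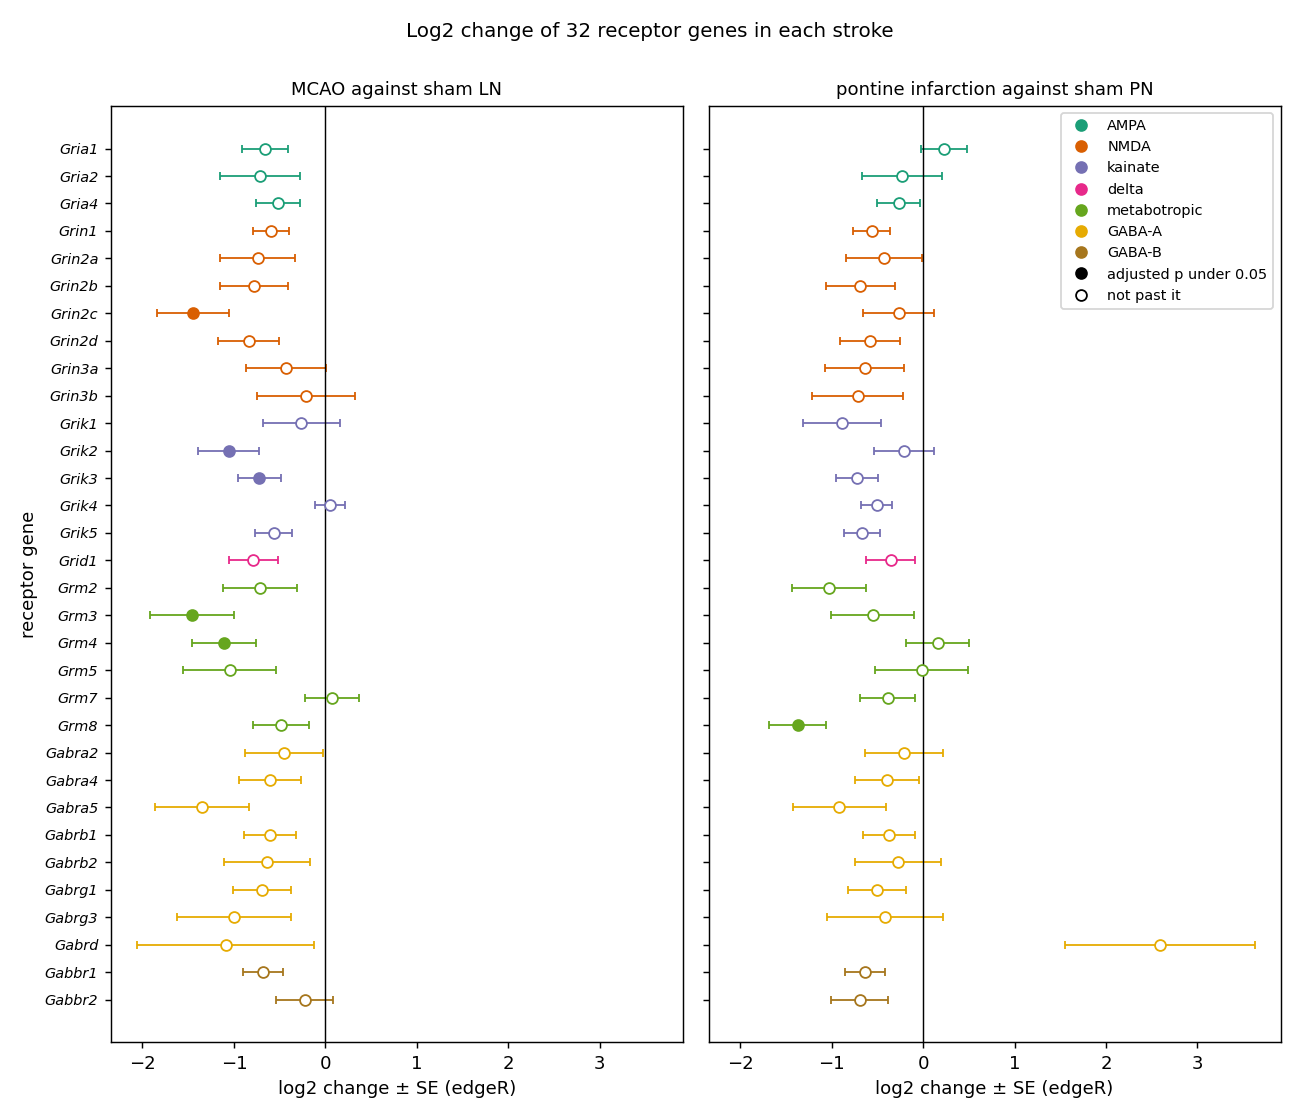
Log2 change ± SE of the 32 tested receptor genes (rows, coloured by class) after MCAO against sham LN (left) and after pontine infarction against sham PN (right), on one horizontal scale; filled points passed an adjusted p of 0.05. After MCAO 30 of 32 points lie left of 0 with 5 filled, and after pontine infarction 29 of 32 lie left of 0 with Grm8 alone filled and Gabrd far to the right with a wide SE.

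The MCAO libraries differed in how far the receptor genes lay from the shams. The median log2 difference of the 32 genes from the sham LN mean was -1.40, -0.24 and -0.78 in MCAO libraries 1, 2 and unnumbered, so replicate 1 was the furthest and replicate 2 the nearest. The number called depended on this. Without MCAO replicate 2, 19 of 33 receptor genes fell and 0 rose, where 18.8% of all genes fell and 35.2% passed in either direction. Without MCAO replicate 1, without the unnumbered library, or without any one sham LN library, 0 receptor genes passed, where 1.15% to 2.74% of all genes fell. Fitted on the MCAO and sham LN libraries alone, 1 receptor gene fell, where 1.46% of all genes fell and 8.63% passed in either direction. The 19 genes without replicate 2 were Gria1, Gria2, Gria4, Grin1, Grin2b, Grin2c, Grin2d, Grin3a, Grik2, Grik3, Grik5, Grid1, Grm3, Grm4, Grm5, Gabra5, Gabrb1, Gabrg1 and Gabbr1. In that fit Grin2c changed by -2.22, Grm3 by -2.45, Grik2 by -1.79, Gabra5 by -2.23 and Grm5 by -1.95 on the log2 scale. In each of these 19 genes replicate 2 was the MCAO library nearest to the sham LN mean, so leaving it out enlarges the changes. The 19 calls are thus no support apart from the fit with all libraries.

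Cell markers moved along with these differences. The 9 neuron markers summed to 3206, 5510.4 and 4919 CPM in MCAO libraries 1, 2 and unnumbered, against 5178, 6720.4 and 5292 CPM in sham LN, and the lowest sum was again that of replicate 1. Of these markers 0 fell, and Eno2 rose (log2 change 1.32 ± 0.23, edgeR adjusted p = 0.00488). Relative to the sham mean, their median log2 difference was -0.94, -0.03 and -0.33 in the same order, against -1.40, -0.24 and -0.78 for the receptor genes. Of 9 markers of striatal projection neurons 4 fell (Drd1, Adora2a, Rgs9 and Adcy5), with sums of 3014, 3983 and 2947 CPM after MCAO, against 7789.99, 3712 and 6809 CPM in sham LN. Of 7 astrocyte markers Aldh1l1, Gja1, Gjb6 and Slc1a3 fell while Gfap rose to 3594 ± 219 CPM, against 434 ± 70.7 CPM in sham LN. Of 5 markers of oligodendrocyte precursors Olig1, Olig2 and Pdgfra fell, and of 7 microglia and leukocyte markers 5 rose. Of 11 cerebellar markers Cbln1 and En2 rose, with sums of 61.8, 61.3 and 66.6 CPM after MCAO, against 52.3, 57.96 and 47.8 CPM in sham LN, and of 7 brainstem markers Slc6a5 rose. None of 8 telencephalic markers passed. The part of these cell types in the receptor changes was not tested.

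**Figure D3:**
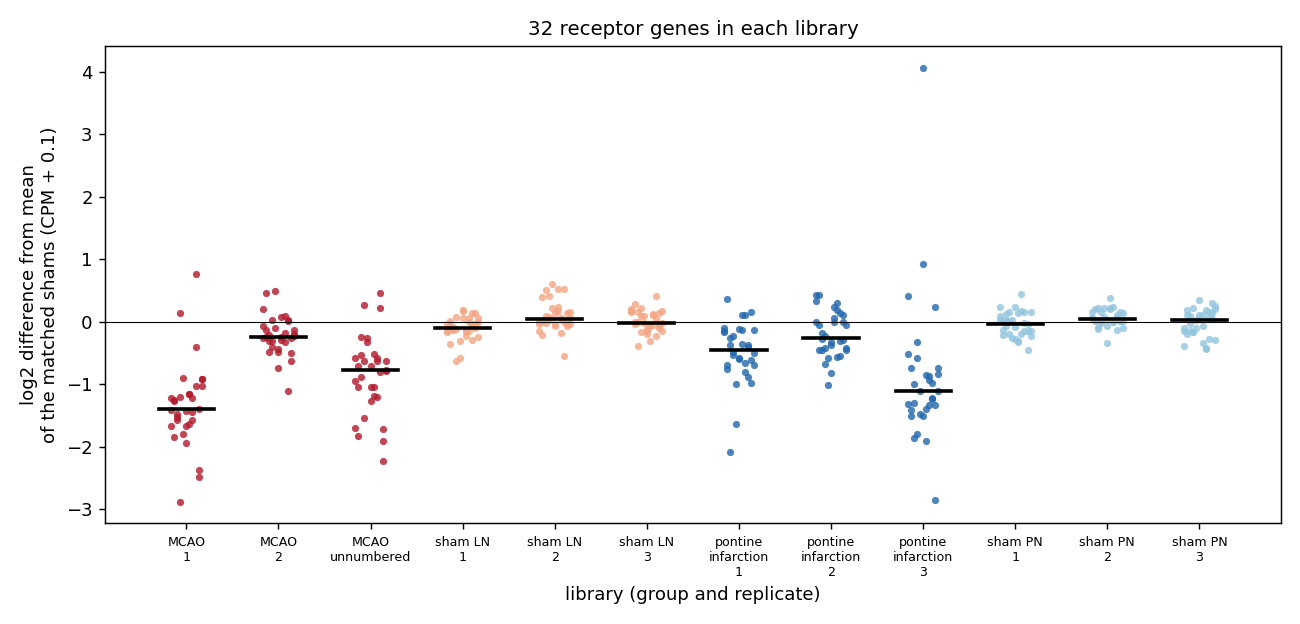
Log2 difference of each of the 32 receptor genes from the mean of the matched shams, on CPM + 0.1, in each library; each point is a gene and each black bar the median of a library. The medians are -1.40, -0.24 and -0.78 in MCAO libraries 1, 2 and unnumbered and -0.45, -0.26 and -1.11 in pontine infarction replicates 1 to 3. Sham libraries are set against the mean of their own group, which holds their medians near 0.

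Pontine infarction was compared with sham PN to see which receptor genes differed after a stroke of the brainstem. Of 32 receptor genes tested 1 fell and 0 rose, where 0.87% of all genes fell and 3.21% rose (4.08% together). It was Grm8, a metabotropic receptor of nerve endings, which had 8.65, 13.3 and 9.61 CPM in pontine infarction replicates 1 to 3, against 22.6, 31.5 and 27.6 CPM in sham PN replicates 1 to 3. All pontine infarction libraries were below all shams, by 2.58-fold in the fit (log2 change -1.37 ± 0.31, edgeR adjusted p = 0.034). The call was lost without pontine infarction replicate 1, without replicate 3, and without any one sham PN library, while the log2 change stayed between -1.58 and -1.25 with any library left out.

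The other 31 receptor genes tested did not pass after pontine infarction. The log2 change was below 0 in 29 of 32, against 58.0% of all genes. Of the 29, 5 turned above 0 without replicate 3. The median was -0.47, against -0.08 over all genes tested. In 14 of the 32 all pontine infarction libraries were below all sham PN libraries, against 18.7% of all genes, and in 0 were they all above, against 13.3% of all genes. At an unadjusted p under 0.05 there were 9 receptor genes (28.1%), against 21.6% of all genes in either direction. The median log2 difference from the sham PN mean was -0.45, -0.26 and -1.11 in replicates 1 to 3. Neuron markers had medians of -0.38, -0.36 and -1.15 and summed to 4376, 4441 and 2742 CPM, against 5407, 5986 and 5538 CPM in sham PN, and 0 of 9 passed. All 7 microglia and leukocyte markers rose, with sums of 1384, 566 and 1779 CPM after pontine infarction, against 168, 188 and 199.7 CPM in sham PN. Gfap rose, Olig2 and Hoxb3 fell, and none of the 11 cerebellar, 8 telencephalic or 9 striatal markers passed. The part of these cell types in the receptor values was not tested.

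None of the 3 AMPA subunits tested passed after pontine infarction, and Gria4 alone had no overlap with its shams. Gria1 had 48.8, 65.6 and 69.001 CPM after pontine infarction, against 55.7, 54.1 and 46.8 CPM in sham PN (log2 change 0.23 ± 0.26, edgeR adjusted p = 0.634). Gria2 had 95.7, 102 and 35.4 CPM after pontine infarction, against 101, 105 and 66.8 CPM in sham PN, and its low value belonged to replicate 3 (log2 change -0.23 ± 0.44, edgeR adjusted p = 0.798). Gria4 averaged 70.6 ± 2.37 CPM after pontine infarction and 84.9 ± 9.38 CPM in sham PN.

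All 7 NMDA subunits had a log2 change below 0 (median -0.58), and 0 passed. Grin1 had 325, 341 and 273 CPM after pontine infarction, against 394, 464 and 528 CPM in sham PN, without overlap (log2 change -0.56 ± 0.20, edgeR adjusted p = 0.135). Grin2b had 23.9, 25.5 and 8.41 CPM after pontine infarction, against 31.4, 28.7 and 32.9 CPM in sham PN, again without overlap (log2 change -0.68 ± 0.37, edgeR adjusted p = 0.315). Grin2a had 14.4, 15.6 and 5.91 CPM after pontine infarction, against 12.7, 20.6 and 15.02 CPM in sham PN. In both Grin2a and Grin2b replicate 3 was the lowest of all libraries. Grin2d averaged 49.6 ± 21.4 CPM, Grin3a 18.2 ± 8.41 CPM and Grin3b 2.24 ± 0.658 CPM after pontine infarction, against 74.2 ± 17.2, 28.4 ± 2.30 and 3.68 ± 0.390 CPM in sham PN (SD, n = 3 each).

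Of the 5 kainate subunits 4 were lower without overlap with their shams, against 18.7% of all genes, and 0 passed. Grik3 averaged 44.9 ± 5.82 CPM after pontine infarction and 73.9 ± 9.84 CPM in sham PN (log2 change -0.72 ± 0.23, edgeR adjusted p = 0.105). Grik5 averaged 85.2 ± 11.3 CPM after pontine infarction and 135 ± 21.7 CPM in sham PN (log2 change -0.67 ± 0.20, edgeR adjusted p = 0.0862). Grik4 averaged 57.03 ± 2.97 CPM after pontine infarction and 81.1 ± 11.9 CPM in sham PN, and Grik1 8.16 ± 1.69 CPM after pontine infarction and 15.1 ± 0.933 CPM in sham PN. Grik2, the fifth, overlapped, with 18.6, 20.5 and 14.3 CPM after pontine infarction, against 21.02, 21.5 and 19.2 CPM in sham PN (log2 change -0.21 ± 0.33, edgeR adjusted p = 0.744). Grid1 averaged 27.8 ± 8.56 CPM after pontine infarction and 35.5 ± 6.53 CPM in sham PN.

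Beside Grm8, Grm2 was the other metabotropic receptor without overlap, at 19.1 ± 9.79 CPM after pontine infarction and 39.2 ± 3.002 CPM in sham PN (log2 change -1.03 ± 0.41, edgeR adjusted p = 0.173). Grm3 had 55.7, 85.4 and 33.7 CPM after pontine infarction, against 82.9, 85.8 and 87.7 CPM in sham PN. Grm5 had 42.1, 43.9 and 11.4 CPM after pontine infarction, against 32.7, 37.3 and 28.2 CPM in sham PN, so that replicates 1 and 2 were above all shams and replicate 3 below all of them. Grm7 averaged 21.3 ± 9.39 CPM after pontine infarction and 27.9 ± 4.39 CPM in sham PN.

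Of the GABA-A subunits tested, 0 of 8 passed. Gabra2 had 27.8, 41.7 and 12.4 CPM after pontine infarction, against 36.5, 34.8 and 23.6 CPM in sham PN, and Gabrb2 137, 150.4 and 33.9 CPM after pontine infarction, against 140.04, 148 and 100.1 CPM in sham PN. Gabrg1 had 28.5, 30.3 and 13.8 CPM after pontine infarction, against 32.8, 39.6 and 30.8 CPM in sham PN, without overlap (log2 change -0.51 ± 0.32, edgeR adjusted p = 0.376). Replicate 3 was the lowest library in these 3 genes. Gabra5 averaged 17.7 ± 7.13 CPM after pontine infarction and 33.3 ± 3.62 CPM in sham PN, without overlap. Gabra4, Gabrb1 and Gabrg3 averaged 9.84 ± 4.89, 21.9 ± 7.77 and 2.14 ± 1.60 CPM after pontine infarction, against 13.03 ± 4.002, 28.4 ± 4.75 and 2.87 ± 0.751 CPM in sham PN (SD, n = 3 each). Both GABA-B subunits were lower without overlap. Gabbr1 had 961, 1127 and 923 CPM after pontine infarction, against 1333, 1581 and 1755 CPM in sham PN (log2 change -0.63 ± 0.22, edgeR adjusted p = 0.128). Gabbr2 had 129.6, 194 and 122 CPM after pontine infarction, against 216, 254 and 251 CPM in sham PN (log2 change -0.69 ± 0.31, edgeR adjusted p = 0.228).

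In pontine infarction replicate 3, Gria1, Grin2c, Grm4 and Gabrd were the tested receptor genes above the sham PN mean, and Gabra6 was high as well. Gabra6, a GABA-A subunit known almost only from cerebellar granule cells, had 1, 4 and 2012 counts in pontine infarction replicates 1 to 3 (0.0465, 0.0936 and 75.2 CPM), against 67, 1 and 5 counts in sham PN (2.88, 0.0378 and 0.180 CPM). Gabrd had 3.40, 2.85 and 87.7 CPM after pontine infarction, against 6.06, 4.04 and 5.53 CPM in sham PN. Replicate 3 was far above and the other libraries below all shams. Grm4 had 28.6, 34.6 and 82.7 CPM after pontine infarction, against 40.9, 44.4 and 45.3 CPM in sham PN, and Grin2c 59.5, 95.8 and 138 CPM after pontine infarction, against 106, 118 and 129.5 CPM in sham PN, with replicate 3 the highest in both. Gria1, given above, was also highest in replicate 3. Gabra6, Gabrd, Grm4 and Grin2c are known from cerebellar granule cells. Cerebellar markers stood out in the same library. Fat2, a marker of granule cells, had 3.67, 10.2 and 208 CPM after pontine infarction, against 18.8, 23.99 and 31.8 CPM in sham PN. Cbln3, also of granule cells, had 0.0465, 0.304 and 73.7 CPM after pontine infarction, against 3.48, 1.89 and 1.98 CPM in sham PN. Pcp2, a marker of Purkinje cells, had 0.372, 0.117 and 58.2 CPM after pontine infarction, against 4.94, 0.189 and 0.287 CPM in sham PN.

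Leaving out replicate 3 turned several directions round. Gabrd had a log2 change of 2.59 ± 1.04 with all libraries and of -0.74 without replicate 3, and Grm4 of 0.16 ± 0.35 with all and -0.46 without it. Gria2, Grm5, Gabra2, Gabrb2 and Gabrg3 had log2 changes of -0.23, -0.01, -0.21, -0.27 and -0.42 with all libraries, against 0.12, 0.39, 0.14, 0.15 and 0.09 without replicate 3. The median over the 32 receptor genes was -0.30 without it, and 0 passed, where 1.78% of all genes did and 0.378% fell. The part of cerebellar RNA in these values was not tested.

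**Figure D4:**
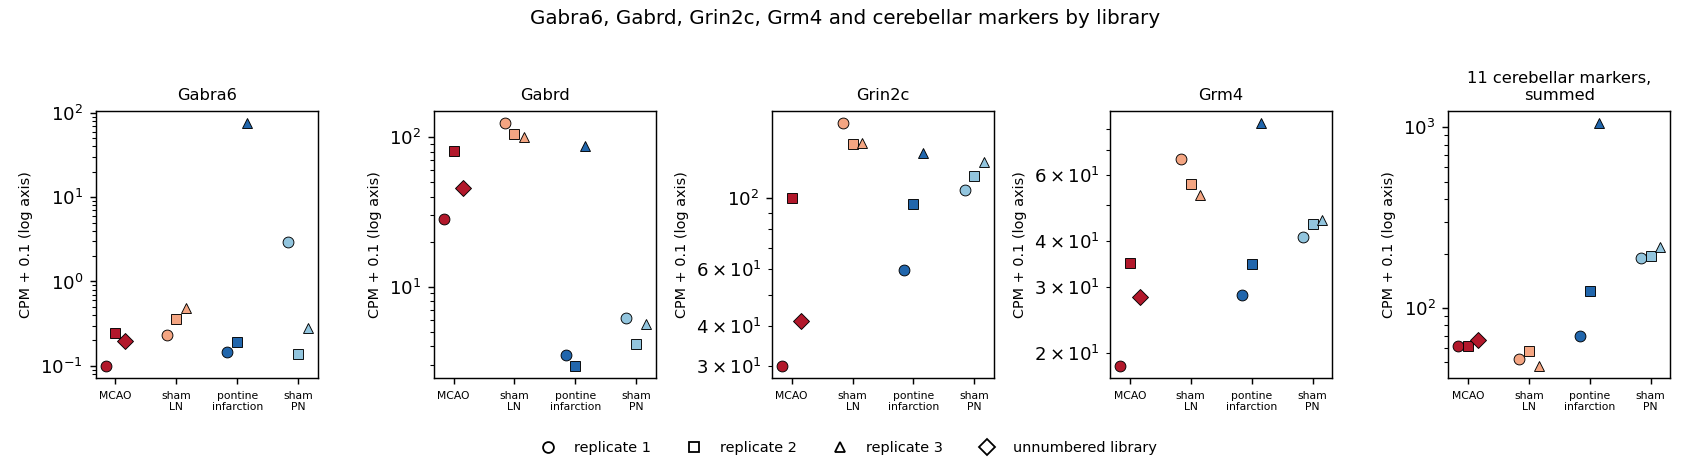
CPM + 0.1 on a log axis of Gabra6, Gabrd, Grin2c, Grm4 and the sum of 11 cerebellar markers in each of the 12 libraries. Pontine infarction replicate 3 (triangle) is the highest of the pontine infarction and sham PN libraries in all 5 panels, with 75.2 CPM of Gabra6 and 1049 CPM of the summed markers.

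The responses to the strokes were set side by side and their difference was tested. In all, 6 receptor genes had no overlap with their shams, on the lower side, in both strokes, which were Grin1, Grin2b, Grik3, Grik5, Gabrg1 and Gabbr1. They made up 40% of the 15 such genes after MCAO and 42.9% of the 14 after pontine infarction, and over all genes the shared 1340 made up 42.2% of either list. The test of the difference between the responses called 0 of 32 receptor genes and 0 of all 17008 genes (0%) in edgeR. At an unadjusted p under 0.05 it counted 4 receptor genes (12.5%), against 1826 of all genes (10.7%). The log2 change after MCAO minus that after pontine infarction was -3.68 ± 1.41 in Gabrd, -1.27 ± 0.49 in Grm4, -0.89 ± 0.36 in Gria1 and 0.56 ± 0.24 in Grik4. Without pontine infarction replicate 3 these differences were -0.35, -0.65, -0.79 and 0.52 in the same order. DESeq2 called 0 receptor genes and 238 genes in all. Without MCAO replicate 2, 4 receptor genes passed with a lower value after MCAO, which were Gria1, Grin2c, Grik2 and Grm3, where 3.44% of all genes passed on that side. Differences in that fit were -1.50, -2.06, -1.68 and -1.99. In these 4 genes MCAO replicate 2 lay nearest to its shams, so leaving it out enlarges the change after MCAO. With any library other than MCAO replicate 2 left out, 0 receptor genes passed, where at most 0.00572% of all genes did.

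The sham groups were compared to see which receptor genes differed between them without a stroke. Sham LN carried forebrain and sham PN hindbrain markers, with 6 of 8 telencephalic and 9 of 9 striatal markers higher and 6 of 7 brainstem and 4 of 11 cerebellar markers lower in sham LN. Of 32 genes, 10 were higher in sham LN (10% of all genes were) and 4 lower (11.3% of all genes were) at an adjusted p under 0.05. All libraries of sham LN were above all of sham PN in 20 receptor genes, against 21.7% of all genes, and below them in 6, against 29.2% of all genes. The median log2 difference, sham LN minus sham PN, was 0.65 for the receptor genes and -0.11 for all genes. The region, the operation and any batch cannot be told apart here.

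The GABA-A subunits Gabra4 and Gabrd had the largest differences. Gabra4 had 171, 145 and 178 CPM in sham LN, against 17.2, 12.6 and 9.27 CPM in sham PN (log2 difference 3.66 ± 0.38, edgeR adjusted p = 6.29e-05), and Gabrd had 124, 105 and 101 CPM in sham LN, against 6.06, 4.04 and 5.53 CPM in sham PN (log2 difference 4.39 ± 1.11, edgeR adjusted p = 0.0152). Both subunits are known to form receptors outside synapses in the forebrain. The call of Gabrd was lost without any one sham PN library. Among the AMPA subunits Gria1 and Gria2 were higher in sham LN, by 1.77 ± 0.26 and 2.01 ± 0.45 on the log2 scale, while Gria4 stood at 78.8 ± 5.80 CPM in sham LN and 84.9 ± 9.38 CPM in sham PN.

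NMDA subunits parted in both directions. Grin2b was higher in sham LN (log2 difference 2.55 ± 0.39, edgeR adjusted p = 0.000875), as were Grin2a (2.27 ± 0.43) and Grin1 (0.83 ± 0.20). Grin3b and Grin2d were lower in sham LN, with log2 differences of -2.22 ± 0.52 and -2.15 ± 0.34. Grin2d averaged 16.7 ± 1.98 CPM in sham LN and 74.2 ± 17.2 CPM in sham PN (edgeR adjusted p = 0.00113). Grin2c averaged 156 ± 13.4 CPM in sham LN and 118 ± 11.7 CPM in sham PN and did not pass. The call of Grin1 was lost without sham LN replicate 2 and without sham PN replicate 1.

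Kainate subunits also split. Grik5 and Grik3 were higher in sham LN, by 1.31 ± 0.20 and 1.14 ± 0.23 on the log2 scale, and Grik4 was lower, with a log2 difference of -0.98 ± 0.17. Of the metabotropic receptors Grm5 was higher in sham LN, with 159.6 ± 28.3 CPM in sham LN and 32.8 ± 4.54 CPM in sham PN (log2 difference 2.28 ± 0.53, edgeR adjusted p = 0.00958). Grm8 was lower, with 12.1 ± 4.94 CPM in sham LN and 27.2 ± 4.44 CPM in sham PN (log2 difference -1.18 ± 0.31, edgeR adjusted p = 0.0184), a call lost without sham LN replicate 1 or 3 and without sham PN replicate 2 or 3. The GABA-B subunits did not pass. Gabbr1 averaged 1523 ± 16.8 CPM in sham LN and 1557 ± 212 CPM in sham PN. A fit on the 6 sham libraries alone called 27 receptor genes, 21 higher and 6 lower in sham LN, where 39.9% of all genes passed and 19.2% were lower in sham LN.

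**Figure D5:**
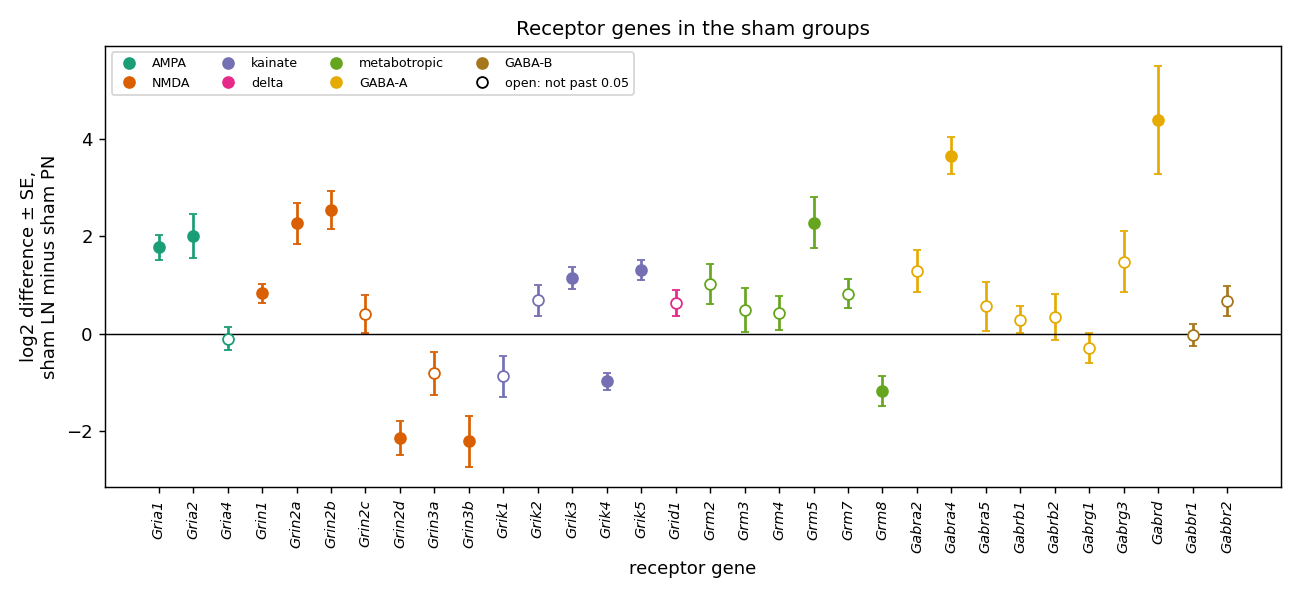
Log2 difference ± SE, sham LN minus sham PN, of the 32 tested receptor genes by class; filled points passed an adjusted p of 0.05. Points above 0 are higher in sham LN, with Gabrd and Gabra4 the highest, and 4 filled points, Grin2d, Grin3b, Grik4 and Grm8, lie below 0.

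Ratios of counts between a pair of subunits were taken within each library, so that they do not depend on scaling between libraries. With 3 libraries a group the exact two-sided permutation test cannot go below p = 0.1, so no ratio could pass 0.05, and 21 ratio comparisons were made. Between the strokes and their shams only Gabrd over Gabra4 after MCAO reached 0.1, with ratios of 0.400, 0.558 and 0.413 in MCAO libraries 1, 2 and unnumbered, against 0.725, 0.721 and 0.565 in sham LN (log2 difference -0.56, exact p adjusted over the 21 = 0.35). The NMDA ratio Grin2b over Grin2a, which falls as synapses mature, was 2.63, 2.47 and 1.86 after MCAO, against 2.66, 1.79 and 2.97 in sham LN. The MCAO values lay inside the range of the shams. After pontine infarction it was 1.65, 1.63 and 1.42, against 2.47, 1.40 and 2.19 in sham PN, and the groups overlapped. The AMPA ratio Gria1 over Gria2 was 0.623, 0.437 and 0.581 after MCAO, against 0.487, 0.472 and 0.504 in sham LN, and 0.510, 0.644 and 1.95 after pontine infarction, against 0.552, 0.515 and 0.701 in sham PN. The single high value was that of pontine infarction replicate 3. Gabra3 was listed at 0, so the ratio of Gabra2 to it could not be formed.

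Between the shams 5 of the 7 ratios did not overlap. Grik4 over Grik5 was 0.123, 0.133 and 0.111 in sham LN, against 0.581, 0.636 and 0.585 in sham PN (log2 difference -2.30). Gria4 over Gria2 was 0.220, 0.214 and 0.213 in sham LN, against 0.850, 0.896 and 1.13 in sham PN (log2 difference -2.14). Grm3 over Grm5 was 0.772, 0.958 and 0.581 in sham LN, against 2.53, 2.30 and 3.10 in sham PN (log2 difference -1.80). All 3 ratios were lower in every sham LN library than in any sham PN library. The others without overlap were Gria1 over Gria2 and Gabbr1 over Gabbr2, with log2 differences of -0.26 and -0.65, and the exact p was 0.1 for each of the 5 (adjusted p = 0.35).

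Proteins that work with these receptors were counted from 3 lists. Of 16 auxiliary subunits of AMPA and kainate receptors 3 fell after MCAO and 0 rose, where 6.07% of all genes fell and 12.5% rose, with a median log2 change of -0.43. Gsg1l, which slows recovery of AMPA receptors, averaged 21.6 ± 11.1 CPM after MCAO, against 50.4 ± 6.05 CPM in sham LN (log2 change -1.22 ± 0.31, edgeR adjusted p = 0.0224). Cnih2, which slows their closing, averaged 129 ± 66.8 CPM after MCAO, against 253 ± 16.2 CPM in sham LN (log2 change -0.97 ± 0.28, edgeR adjusted p = 0.0344), and Shisa9 43.1 ± 23.1 CPM after MCAO, against 96.3 ± 17.2 CPM in sham LN (log2 change -1.16 ± 0.35, edgeR adjusted p = 0.0395). All 3 calls were lost without the unnumbered MCAO library and without any one sham LN library, and those of Cnih2 and Shisa9 also without MCAO replicate 1. After pontine infarction 0 of 16 passed, where 0.87% of all genes fell and 3.21% rose. All 16 had a log2 change below 0 (median -0.46), against 58.0% of all genes (median -0.08).

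Of the partners of inhibitory receptors 11 were tested. After MCAO 2 fell and 2 rose, where 6.07% and 12.5% of all genes did so. Kctd8 and Kctd12 encode auxiliary subunits of the GABA-B receptor and moved apart. Kctd8 had 4.67, 12.7 and 4.40 CPM after MCAO, against 23.97, 24.2 and 29.99 CPM in sham LN (log2 change -1.84 ± 0.35, edgeR adjusted p = 0.00683). Kctd12 had 179, 156 and 166 CPM after MCAO, against 104, 105 and 121 CPM in sham LN (log2 change 0.60 ± 0.14, edgeR adjusted p = 0.0141). Neither gene overlapped between the groups. Kctd12 also rose after pontine infarction, where it had 174, 133 and 173 CPM, against 76.9, 74.3 and 64.7 CPM in sham PN (log2 change 1.15 ± 0.14, edgeR adjusted p = 0.00508), and it was the only partner of this list to pass there, where 3.21% of all genes rose. Lhfpl4, which brings GABA-A receptors to the synapse, fell after MCAO to 35.2 ± 6.10 CPM, against 52.4 ± 1.31 CPM in sham LN (log2 change -0.58 ± 0.17, edgeR adjusted p = 0.0385). Gabarap, a trafficking and autophagy protein named for its binding to GABA-A receptors, rose to 214 ± 75.9 CPM, against 127 ± 4.86 CPM in sham LN (log2 change 0.75 ± 0.23, edgeR adjusted p = 0.043). With a library left out, Kctd8 passed each time, with log2 changes of -2.61 to -1.58. Kctd12 lost its call after MCAO when MCAO replicate 1, sham LN replicate 1 or sham LN replicate 2 was left out, and after pontine infarction when sham PN replicate 3 was. Lhfpl4 and Gabarap passed only with all libraries or without MCAO replicate 2.

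Of 17 genes of glutamate and GABA supply and clearance 4 fell after MCAO and 0 rose, where 6.07% of all genes fell and 12.5% rose. Among them were the glial glutamate transporter Slc1a3 (-0.63 ± 0.16 on the log2 scale), the GABA transporter Slc6a11 (-1.46 ± 0.40), and Aldh5a1 (-0.89 ± 0.25), an enzyme of GABA breakdown. Slc6a11, mainly of astrocytes, had 14.9, 55.7 and 35.1 CPM after MCAO, against 104, 99.4 and 88.2 CPM in sham LN. All MCAO libraries were below all shams (edgeR adjusted p = 0.0274). The calls of these 3 genes were lost without the unnumbered MCAO library and without sham LN replicate 1 or 3, those of Slc6a11 and Aldh5a1 also without sham LN replicate 2, and that of Aldh5a1 also without MCAO replicate 1. After pontine infarction 1 of 17 rose and 0 fell, where 3.21% of all genes rose and 0.87% fell. Glul, the astrocytic enzyme that turns glutamate into glutamine, had 2990.1, 2280.4 and 2927 CPM after pontine infarction, against 1642, 1786 and 1863 CPM in sham PN (log2 change 0.63 ± 0.15, edgeR adjusted p = 0.0369). Gfap rose in the same libraries, to 5393 ± 1490.3 CPM, against 1519.8 ± 100.4 CPM in sham PN, and its part in the Glul value was not tested. Glul passed only with all libraries or without pontine infarction replicate 2.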

How the data were processed

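The authors deposited 1 table of unnormalised gene counts for the 12 libraries, and per the submitters' processing notes the reads were aligned with HISAT2 to the rat assembly Rnor_6.0. The counting program, annotation and strandedness are not stated, so antisense or overlapping genes may share reads. Per the labels' protocols, RNA was extracted with Trizol. From the deposited counts, all genes were fitted in R 4.3.3 with edgeR 4.0.16 (quasi-likelihood test, TMM scaling, filterByExpr with a minimum count of 10 and a minimum total of 15), which left 17008 genes. All 12 libraries shared 1 estimate of the spread (common biological coefficient of variation 0.302). Tests were two-sided, p-values were Benjamini-Hochberg adjusted over all genes, and each SE was taken as the size of the log2 change divided by the root of edgeR's F. Log2 changes are stroke minus sham or sham LN minus sham PN. Differences of single libraries from the sham mean used a pseudocount of 0.1 CPM. The steps were tested on simulated data.

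Library totals of 19805815 to 40400676 counts set the counting precision, and no gene lengths were available, so levels are compared within a gene only. The receptor genes, partner lists and marker lists were chosen with earlier results of these data known. Values of every library are given for a fixed core of receptor genes and for those past the threshold, and partners are named by their adjusted p. From the 15 inhibitory partners listed, 12 symbols were in the table, and 11 had enough counts. Alternatives were DESeq2 size factors, no filter, 1 CPM in 3 libraries, DESeq2 1.42.0, limma 3.58.1 voom, fits on the compared libraries alone, leaving out each library, and a block for the replicate number. Promoter sequences are RefSeq's for GRCr8, used for sequence and gene names only. Some genes of the lists are not reported here by name.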

Additional observations from a re-analysis of the deposited data

How the results depend on the processing

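The number of receptor genes past the threshold after MCAO was 5, where 6.07% of all genes fell. It was 7 with DESeq2 size factors (7.33% of all genes), 9 with no filter on low counts (5.55%), 6 with a filter of 1 CPM in 3 libraries (6.67%), 12 with DESeq2 (12.1%), 8 with limma voom (7.06%) and 1 with the compared libraries alone (1.46%). Leaving out 1 library in turn it ran from 0 to 19, and the share of all genes that fell from 1.15% to 18.8%. After pontine infarction it was 1 (0.87% of all genes fell) and was 2 with DESeq2 (3.02%). It ran from 0 to 1 with a library left out, where 0% to 1.11% of all genes fell. For the difference between the responses it was 0 and ran from 0 to 4 with a library left out, where 0% to 5.53% of all genes passed. Between the shams it was 14 (21.3% of all genes passed) and was 27 with the compared libraries alone (39.9%). It ran from 12 to 13 with a library left out, where 13.5% to 15.2% of all genes passed. With the replicate number as a block, which leaves out the unnumbered library, 0 receptor genes passed after MCAO and 1 after pontine infarction. In that fit 1.48% of all genes fell after MCAO and 1.14% after pontine infarction. The numbers were not treated as pairs in the main fit. Deviations of same-numbered libraries from their group means correlated at 0.104 and 0.0426 (MCAO and sham LN) and 0.0483, 0.150 and 0.154 (pontine infarction and sham PN). These correlations were low, but each numbered MCAO library and each pontine library correlated best with the sham of its own number. Whether the numbers mark pairs or a batch was not tested.

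Directions that turned belonged to genes that did not pass. Log2 changes after MCAO with no filter and with the block were -0.0482 and -0.0778 in Grik4 and -0.0195 and -0.36 in Grm7. After pontine infarction Grm5 was at 0.0168 with DESeq2 size factors, 0.0788 with no filter, 0.0162 with DESeq2 and 0.0832 with the compared libraries alone, and Grm4 at -0.000637 with limma voom. Gabbr1 between the shams was at 0.0210, 0.0784, 0.0210 and 0.0496 in the same 4 settings. With a library left out, log2 changes after MCAO ran from -1.27 to 0.0647 in Grin3b, -0.95 to 0.0692 in Grik1, -0.0836 to 0.11 in Grik4, -0.17 to 0.18 in Grm7 and -0.47 to 0.0831 in Gabbr2. After pontine infarction they ran from -0.47 to 0.12 in Gria2, -0.46 to 0.43 in Grm4, -0.30 to 0.39 in Grm5, -0.66 to 0.14 in Gabra2, -0.60 to 0.15 in Gabrb2, -0.77 to 0.0932 in Gabrg3 and -0.74 to 3.13 in Gabrd, and between the shams from -0.13 to 0.0641 in Gabbr1. The cause of these changes was not tested. Of the values of single receptor genes, 552 with a library left out and 633 in the other settings kept their direction and their side of the threshold. In the same direction, 15 and 41 newly passed and 39 and 9 no longer passed. Of the subunit ratios, which could not pass at this size, 121 of 126 values with a library left out and 42 of 42 others kept their direction. Log2 differences after pontine infarction ran from -0.46 to 2.59 in Gabrd over Gabra4, -0.0277 to 0.94 in Gria1 over Gria2 and -0.38 to 0.34 in Gria4 over Gria2, each below 0 without pontine infarction replicate 3 alone. After MCAO they ran from -0.29 to 0.0760 in Grin2b over Grin2a, above 0 without the unnumbered library and without sham LN replicate 3.

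With 3 libraries a group, all 5 receptor calls after MCAO, the 1 after pontine infarction and 3 of the 14 between the shams were lost with at least 1 library left out, and a gene that did not pass is not shown to be equal. Region, time after the stroke and dissection are not described, gene levels cannot be compared between genes, and genes on the X chromosome were not analysed here.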
